A study of Arabidopsis thaliana with 6 samples.

Results

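Membrane transporters are the genes described here: 61 of the 1336 genes listed by the authors as higher or lower in sams3 seedlings than in L119 seedlings. A gene was taken as a member where its deposited description holds the word transporter. The rule leaves out rows with any of 3 named protein domains and AT4G39030 (EDS5); of the 62 rows with the word, this removed EDS5 alone. Members were then sorted by the substrate or family that the same description names: sulphate, nitrate or peptide, sugar, amino acid, metal, the ATP-binding cassette (ABC) and the multidrug and toxic compound extrusion (MATE) families, with 17 members left under none of these.

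L119 is a transgenic Arabidopsis thaliana line that served as the wild type. The sams3 mutant, labelled with L119 as its ecotype, is named for S-adenosylmethionine synthetase 3, an enzyme that makes the methyl donor of the cell. Whole seedlings of both genotypes were harvested after 15 days on MS agar plates (0.8% agar, 20 g/L sucrose, 22 °C, 23 h of light a day), and RNA was sequenced from 2 libraries per genotype. Bisulfite libraries, 1 per genotype, were not analysed here. The labels give no tissue finer than the seedling, neither the transgene of L119 nor the kind of sams3 allele, and nothing that says the 2 libraries came from separate cultures. The p-values of the authors therefore reflect how far libraries of 1 genotype differ, a spread that may be technical. SAMS3 is in neither gene list, so the lists do not check the genotype labels.

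Transporters are proteins that span a membrane and move ions, nutrients, hormones or metabolites across it. Pumps such as P-type ATPases and ABC proteins spend ATP directly, whereas most carriers, the large major facilitator superfamily among them, use the proton gradient or the gradient of the substrate itself. In seedlings these proteins take up nitrate, phosphate, potassium and sulphate, load sugars and amino acids into the phloem, direct the flow of auxin, and store metals and toxic compounds in the vacuole. Sulphate is the source of sulphur for cysteine and methionine, and methionine is the substrate of the SAMS enzymes.

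Of the 61 transporters in the authors' deposited table, 47 were higher and 14 lower in sams3. That is 77.0% higher, beside 66.9% of all listed genes and 66.4% of those that are not members. The difference was not tested, and members that are close relatives are not independent of each other. Counts for single groups below stand against the same background share and were not tested either. The split was also taken by where the description carries the word. Among the 27 members with it in the name of the gene, 18 were higher and 9 lower in the authors' deposited table, or 66.7%, near the share of all listed genes. Among the other 34, whose word stands in a function, a domain or the best matching protein, 29 were higher and 5 lower, or 85.3%. The difference between the 2 kinds of description was not tested.

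The changes were mostly modest. Per the authors' deposited table, the median absolute log2 fold change was 1.396 for the 47 higher transporters, below the 1.62 of all higher genes, and 1.26 for the 14 lower transporters, close to the 1.27 of all lower genes. For 38 of the 61 the absolute log2 fold change was under 1.5. A change of at least 4-fold (an absolute log2 of 2) was reached by 14 transporters in the authors' deposited table, 12 higher and 2 lower, which is 23.0% beside 25.9% of all listed genes. The authors' p-value was below the Bonferroni threshold over the reference loci, 1.32e-06, for 54 of the 61 (88.5%), a share near the 86.2% of all listed genes. Values per library were not used here, so no level or spread between libraries can be given. In whole seedlings, fewer cells of a type and less RNA per cell cannot be told apart.

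**Figure D1:**
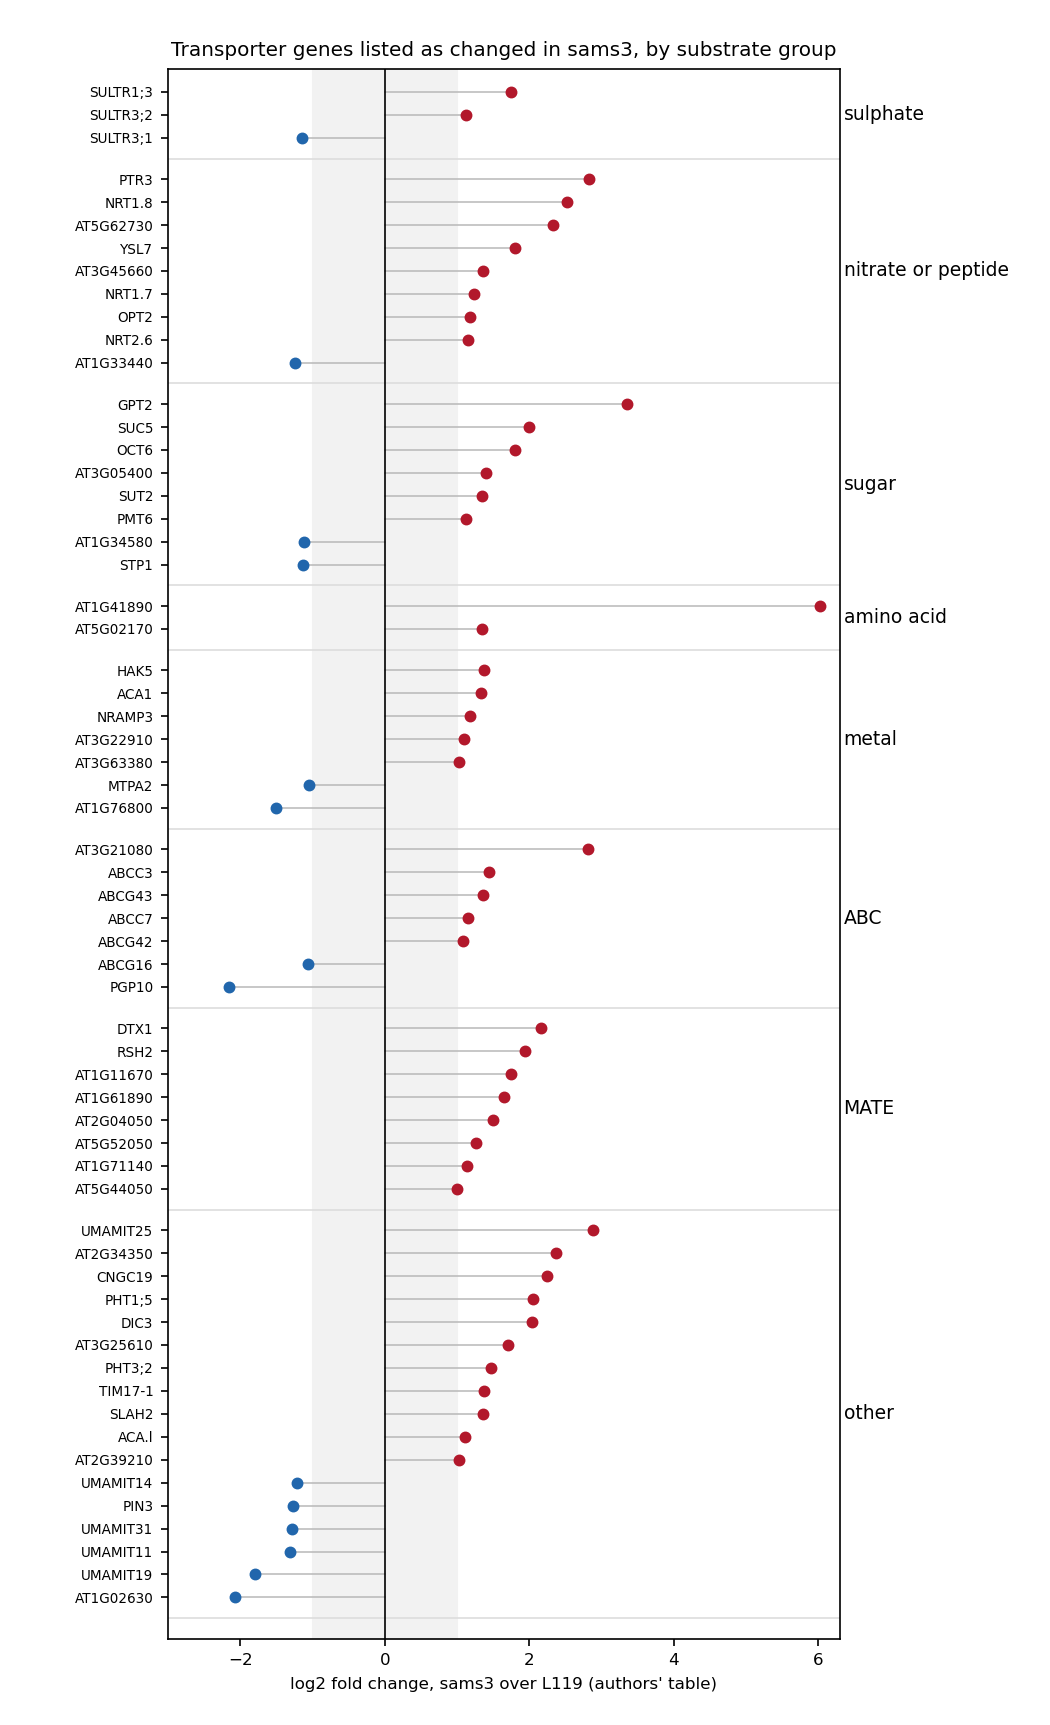
Each point is the log2 fold change of a transporter, sams3 over L119, as the authors' deposited table gives it, with genes ordered within substrate groups and the unlisted range between -1 and 1 shaded. Most of the 61 points lie to the right of 0, and all 8 MATE genes do.

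Nitrate and peptide transporters were higher in sams3 in 8 of 9 cases. NRT1.8 (AT4G21680), which withdraws nitrate from the xylem, was 5.76-fold higher in the authors' deposited table (log2 2.53, p = 5.01e-160), the smallest p-value of the group. NRT1.7 (AT1G69870), which loads nitrate into the phloem of older leaves for export to young ones, was 2.35-fold higher in the authors' deposited table (log2 1.23, p = 4.99e-72). Both of these carriers move nitrate inside the plant rather than take it up from the soil. The authors' deposited table also gives NRT2.6 (AT3G45060), of the high-affinity nitrate transporter family, as 2.23-fold higher (log2 1.16), with a p-value near the cut-off of the list (1.12e-05).

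On the peptide side, PTR3 (AT5G46050), a transporter of short peptides known from wounding and defence, had the largest rise of the group, 7.10-fold in the authors' deposited table (log2 2.83, p = 1.10e-100). AT5G62730 followed with a log2 fold change of 2.33 in the authors' deposited table (p = 5.93e-09), and YSL7, of the yellow stripe-like family of metal chelate carriers and placed here by an oligopeptide term, with 1.797 (p = 3.80e-19). OPT2, an oligopeptide transporter, and AT3G45660 stood at log2 1.18 and 1.37 in the authors' deposited table, with p-values of 9.82e-06 and 8.06e-06. The only lower gene of the group was AT1G33440 (log2 -1.25, p = 1.06e-05), again with a p-value near the cut-off in the authors' deposited table. Like YSL7, the genes AT5G62730, AT3G45660 and AT1G33440 were placed here by an oligopeptide term. NRT1.7 and NRT1.8 carry that term too, so it does not show that the substrate is a peptide. The best match of AT3G45660 is NAXT1. By its symbol NPF4.4, AT1G33440 falls in the family that holds NRT1.7, NRT1.8 and PTR3.

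Sulphate transporters went both ways. SULTR1;3 (AT1G22150), of the subfamily of high-affinity carriers and placed in the phloem, was 3.36-fold higher in sams3 in the authors' deposited table (log2 1.75, p = 1.49e-09). SULTR3;2 (AT4G02700) was 2.18-fold higher and SULTR3;1 (AT3G51895) 2.22-fold lower in the authors' deposited table (log2 1.12 and -1.15, p = 2.58e-09 and 2.45e-46). These latter genes name each other as best matching Arabidopsis protein, and they were the only such pair of members with opposite directions. SULTR3;2 and SULTR3;1 both belong to the subfamily linked to sulphate uptake by chloroplasts.

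In the sugar group 6 genes were higher and 2 lower. GPT2 (AT1G61800) is the plastid exchanger of glucose 6-phosphate and phosphate. It had the largest rise of any protein-coding member, 10.2-fold in the authors' deposited table (log2 3.35, p = 8.03e-78). Sucrose carriers were also higher: SUC5 (AT1G71890) by 3.98-fold and SUT2 (AT2G02860, also called SUC3) by 2.54-fold in the authors' deposited table (p = 1.17e-12 and 2.28e-68). PMT6, a polyol and monosaccharide carrier, was 2.18-fold higher in that deposited table, AT3G05400 was 2.63-fold higher, and OCT6, an organic cation carrier that falls in this group by a sugar transporter term in its description, was 3.49-fold higher.

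STP1 and AT1G34580 were the lower sugar genes. STP1 (AT1G11260), the proton symporter that takes up glucose, was 2.19-fold lower in the authors' deposited table (log2 -1.13), with the second smallest p-value among lower transporters, 9.45e-77. AT1G34580, whose best match is STP1, was 2.17-fold lower in the authors' deposited table (log2 -1.12, p = 5.62e-08).

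MATE proteins export organic compounds and ions in exchange for protons. All 8 MATE members were higher in sams3, beside 66.9% of all listed genes, with log2 fold changes of 1.003 to 2.17 in the authors' deposited table. EDS5, a MATE gene of the salicylic acid pathway that the rule leaves out, was also listed as higher, at 1.72 in the authors' deposited table. DTX1 (AT2G04040), which exports plant alkaloids and cadmium, had the largest rise of the 8, 4.49-fold in the authors' deposited table (log2 2.17, p = 3.00e-33). RSH2 (AT1G12950), named for its expression in root hairs, followed with log2 1.94 and p = 4.12e-38 in the authors' deposited table. AT1G61890 and AT1G11670, each the best match of the other, had the smallest and the third smallest p-value of all 61 transporters, 1.45e-171 and 1.81e-132, at log2 1.65 and 1.75 in the authors' deposited table. AT5G52050 (DTX50), known as an exporter of abscisic acid, was 2.41-fold higher there (log2 1.27), and AT5G44050, at log2 1.003, was the transporter closest to the authors' fold threshold. None of the 8 has the word transporter in the name field, so the group rests on functions and domains.

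**Figure D2:**
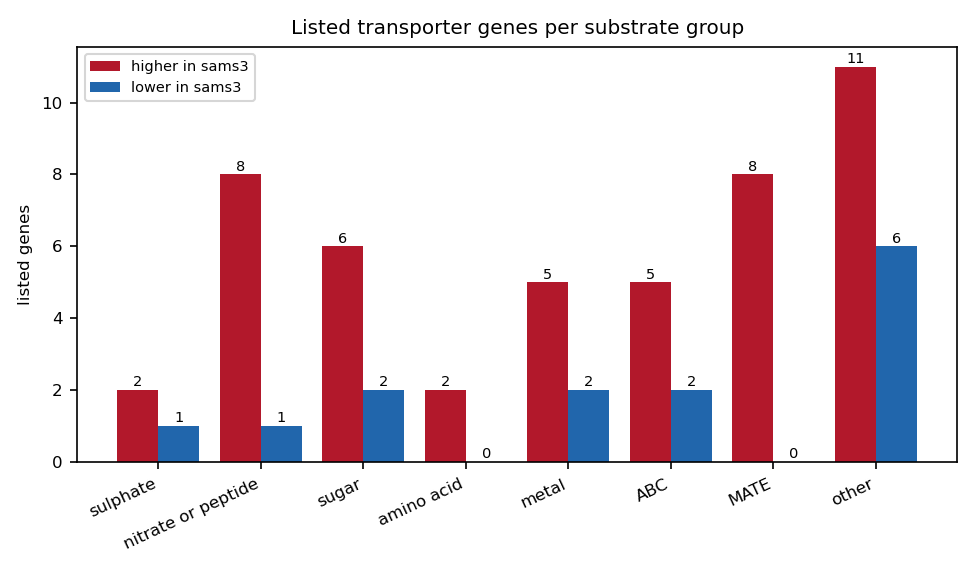
Bars count the listed transporters of each substrate group that were higher (red) and lower (blue) in sams3 in the authors' deposited table. All 8 groups have more higher than lower genes, and 2 of them, MATE with 8 genes and amino acid with 2, have no lower gene. The amino acid group leaves out the UMAMIT genes, 1 higher and 4 lower, which are counted under other. Of its 2 genes, AT1G41890 is a transcribed pseudogene.

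ABC transporters, ATP-driven pumps for a wide range of compounds, were higher in 5 and lower in 2 cases. AT3G21080 had the largest rise, 7.04-fold in the authors' deposited table (log2 2.82, p = 3.30e-27). ABCC3 (AT3G13080), a pump of glutathione conjugates and chlorophyll catabolites, had the smallest p-value of the group in the authors' deposited table (log2 1.44, p = 7.90e-109), and its near neighbour ABCC7 was at log2 1.15. ABCG42 and ABCG43, adjacent genes that are each other's best match, were at log2 1.08 and 1.36 in the authors' deposited table. On the lower side stood PGP10 (ABCB10), of the P-glycoprotein class, and ABCG16, known from the making of the pollen wall. PGP10 had the largest fall of any member, 4.44-fold in the authors' deposited table (log2 -2.15), yet also a p-value near the cut-off, 2.60e-05. ABCG16 was 2.09-fold lower in the authors' deposited table (log2 -1.07, p = 5.11e-06).

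Metal transporters changed little beyond the threshold: all 7 had an absolute log2 fold change of at most 1.5 in the authors' deposited table, 5 higher and 2 lower. HAK5 (AT4G13420), the high-affinity potassium carrier of roots, was 2.58-fold higher in the authors' deposited table (log2 1.37, p = 1.82e-18). NRAMP3, which releases iron and manganese from the vacuole, was 2.26-fold higher in the authors' deposited table (log2 1.18, p = 8.38e-33). Calcium pumps made up the rest of the higher genes: ACA1 was 2.52-fold higher in the authors' deposited table (log2 1.34, p = 3.13e-105), and AT3G22910 and AT3G63380, each other's best match, were 2.14-fold and 2.05-fold higher. On the lower side, MTPA2, a zinc carrier of the vacuole membrane, was at log2 -1.05, and AT1G76800, of a family of iron carriers into the vacuole, at -1.50 in the authors' deposited table.

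P-type ATPases cut across these groups. The 5 transporters with such a domain were all higher, beside 77.0% of all 61 transporters and 66.9% of all listed genes. So small a count was not tested. Their log2 fold changes were 1.03 to 1.71 in the authors' deposited table. Beside the 3 calcium pumps they comprise AT3G25610 and ACA.l (AT1G13210), each other's best match. AT3G25610 was 3.27-fold higher in the authors' deposited table (log2 1.71, p = 5.30e-110) and ACA.l was 2.17-fold higher (log2 1.12, p = 1.06e-69). ACA.l is named as a calcium pump, while its deposited description places it in phospholipid transport.

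Amino acid carriers appear under 2 headings, because the descriptions of the UMAMIT family (usually multiple acids move in and out transporters) do not name the substrate. The amino acid group itself holds AT5G02170, 2.54-fold higher in the authors' deposited table (log2 1.34, p = 5.60e-14), and AT1G41890. AT1G41890 is a transcribed pseudogene in the RefSeq table, and its log2 fold change of 6.02 is the largest of all 61 while its p-value, 6.95e-05, is also the largest. The authors' deposited table gives nearly the same log2 fold change and p-value to AT3G32377 (6.02, p = 7.18e-05) and AT3G44980 (6.02, p = 8.00e-05). Levels were not used here, so none can be given beside this fold.

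UMAMIT genes were higher in 1 and lower in 4 cases. UMAMIT25 (AT1G09380) was 7.40-fold higher in sams3 in the authors' deposited table (log2 2.89, p = 9.52e-19), the second largest rise among protein-coding members. UMAMIT19 was 3.48-fold lower in the authors' deposited table (log2 -1.80, p = 5.87e-11), UMAMIT11 2.47-fold lower and UMAMIT31 2.44-fold lower. UMAMIT14, which unloads amino acids from the root phloem, was 2.32-fold lower in the authors' deposited table (log2 -1.21, p = 6.96e-19). This family supplied 4 of the 14 lower transporters, and without it the group left under no heading held 10 higher and 2 lower genes.

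**Figure D3:**
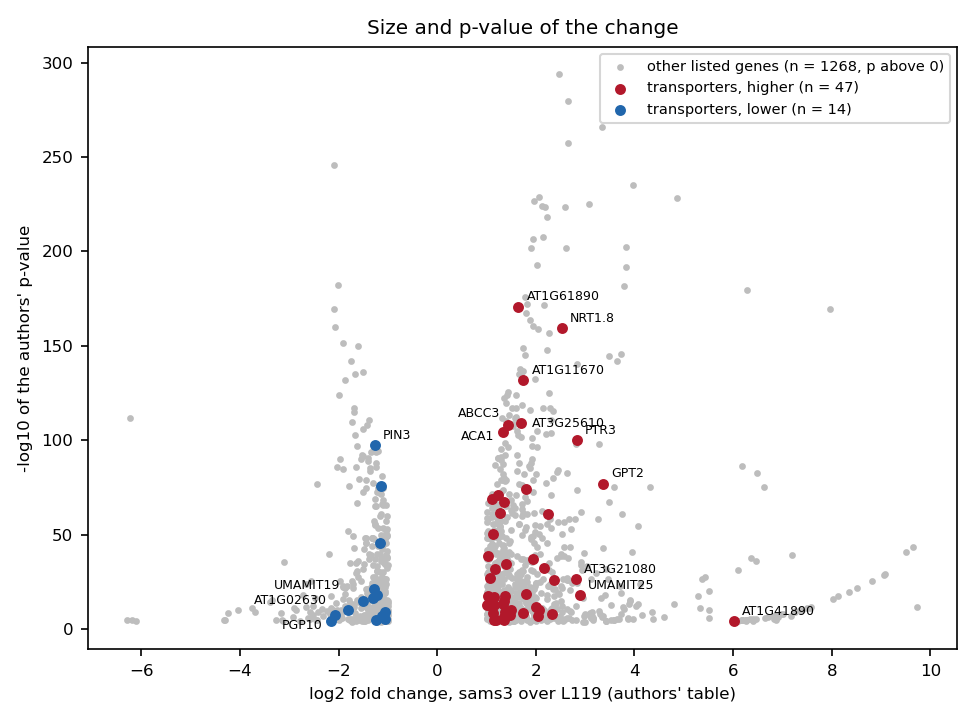
Each point is a listed gene, with its log2 fold change (sams3 over L119) across and -log10 of its p-value upwards, both from the authors' deposited table. Genes whose p-value is listed as 0 are left out, and none of them is a transporter. Transporters lie within the cloud of other listed genes, mostly between 1 and 2 on the higher side, with AT1G41890 alone near 6.

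Among the 12 genes left under no heading, the UMAMIT genes aside, were phosphate and organic acid carriers. Their descriptions hold none of the substrate words searched for, though some name another substrate, such as phosphate. PHT1;5, which moves phosphate between source and sink organs, was 4.16-fold higher in the authors' deposited table (log2 2.06, p = 1.03e-10). PHT3;2, a phosphate carrier of the mitochondrion, was 2.78-fold higher there (log2 1.47), and DIC3, a mitochondrial dicarboxylate carrier, was 4.10-fold higher (log2 2.04). Nodulin-like proteins of the major facilitator superfamily were represented by AT2G34350, 5.19-fold higher in the authors' deposited table, and AT2G39210, 2.04-fold higher.

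The lower genes here were PIN3 and AT1G02630. PIN3 (AT1G70940), an auxin exporter that acts in the bending of shoots and roots to light and gravity, was 2.40-fold lower in the authors' deposited table (log2 -1.27), with the smallest p-value among lower transporters, 2.40e-98. AT1G02630, described as a nucleoside transporter, was 4.20-fold lower in the authors' deposited table (log2 -2.07, p = 1.60e-08), the second largest fall.

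The word also brought in proteins that are not carriers. CNGC19, a cyclic nucleotide-gated calcium channel, holds it only through its best match and was 4.73-fold higher in the authors' deposited table (log2 2.24, p = 1.53e-61). SLAH2, an anion channel, was 2.57-fold higher in that deposited table (log2 1.36). TIM17-1, a subunit of the mitochondrial protein import complex, was 2.58-fold higher there (log2 1.37). Left without these 3, the members are 44 higher and 14 lower.

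Listed transporters were also compared with their closest relatives. A best matching Arabidopsis protein is given for 60 members, and for 11 of them (18.3%) it is itself listed and is a transporter. Over all listed genes with a best match, 282 of 1202 (23.5%) have it on the lists, so the transporters' share is near or below that background. These form 5 pairs in which each gene names the other, 4 with a shared direction and 1, the sulphate pair, without, beside the link from AT1G34580 to STP1. Over all listed genes there are 100 such mutual pairs, of which 94 share a direction. For the other 49 the best match is not listed in either direction. The adjacent protein-coding locus is the best match for 12 members, and for 10 of these that neighbour is not listed. Over all listed genes the adjacent locus is the best match for 206 of 1202, and for 130 of these it is not listed. PTR3, SUC5 and AT3G21080 are examples, and ABCC6, between ABCC3 and ABCC7, is the best match of both and not listed. Sequence identity between these genes and their neighbours was not computed. How the authors' counting treated any reads that such genes share is not stated in the labels or headers. Single values of these genes are uncertain to that extent. DTX1 and AT2G04050, adjacent MATE genes, were both higher.

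To set the lists beside whole families, loci were also collected from the RefSeq table by family symbol. Of 453 loci with a transporter symbol, 25 were listed as higher and 14 as lower, together 8.61%, beside 4.70% of all protein-coding loci in the table. These sets are unlike: the 453 loci were picked by symbol, of any gene type, whereas the 4.70% covers every protein-coding locus. The 453 also differ from the 61 members. Of the 39 listed loci among them 33 are members, and other members lack such a symbol. Aquaporins make up 34 of the 453, and the MATE family enters by only 3 loci with a DTX symbol. The difference was not tested. In the sulphate family 3 of 12 loci were listed and in the ABC family 6 of 127, the latter 4.72% and so near the background. No locus was listed among 6 ammonium transporters (AMT), 15 zinc and iron carriers (ZIP/IRT), 8 heavy metal ATPases (HMA) or 6 copper carriers (COPT), nor among the 8 AAP and 4 LHT amino acid importers. A locus outside the lists may have missed either threshold or may not have been measured, and families differ in how many of their loci carry the symbol.

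**Figure D4:**
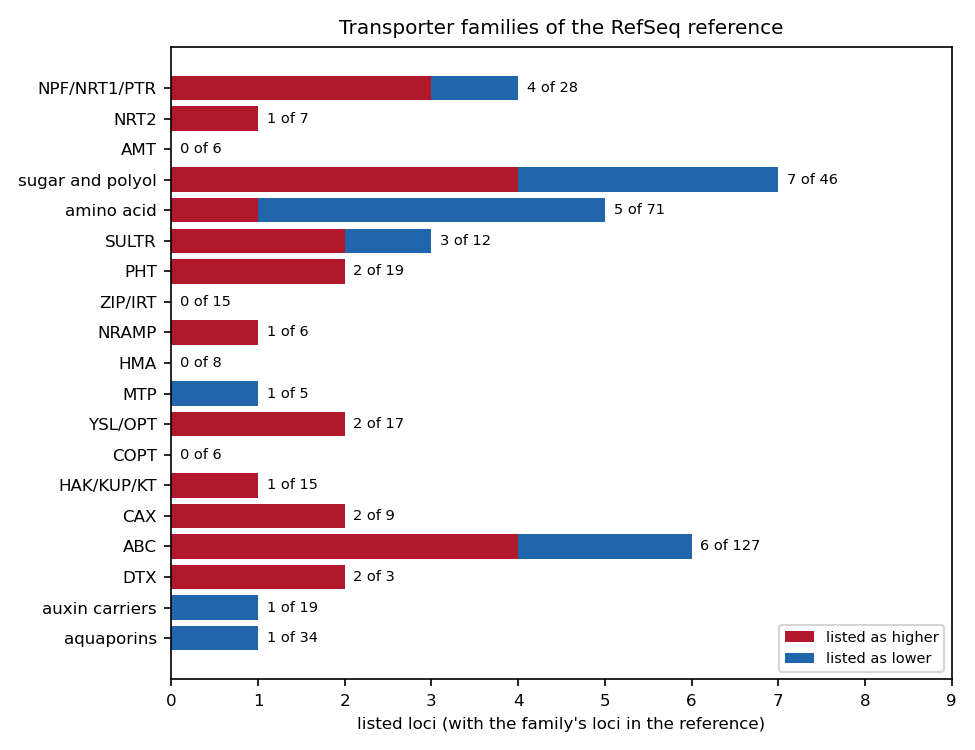
Bars count the loci of each family in the RefSeq table that the authors list as higher (red) or lower (blue) in sams3, with the number listed of all family loci beside each bar. Sugar and polyol carriers have 7 of 46 loci listed, and 4 families have 0.

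Further listed genes of these families lack the word in their description. The sugar exporters SWEET4 and SWEET13 were lower in the authors' deposited table (log2 -2.06 and -1.76), whereas SWEET16, of the vacuole membrane, was higher (log2 1.04). The calcium and proton exchangers CAX3 and CAX4 were higher there, at log2 1.25 and 1.08. The aquaporin NIP2;1 was lower in the authors' deposited table (log2 -1.76). Outside these families, 27 listed genes have transport but not transporter in the description, 19 higher and 8 lower. Among them CHX2 was at log2 3.88 in the authors' deposited table, above every protein-coding member, and CHX16 at 1.15.

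The deposited descriptions carry further fields. The cellular location stands in the same text that was searched for the word transporter, so a high membrane share largely follows from the rule. A known location is given for 54 transporters and 577 other listed genes, and it names any membrane for 98.1% and 59.6% of them. With the endomembrane system not counted, it names a membrane for 52 transporters (96.3%), against 20.5% of the others. The plasma membrane is named for 18 transporters (33.3%), 15 of 41 higher and 3 of 13 lower, against 9.71% of the other listed genes. The endomembrane system, named for 41.4% of the others, is named for 7.41%. The median number of plant structures in the descriptions was 11 for higher and 15.5 for lower transporters, against 10 and 15 for all listed genes. Chromosomes 1 to 5 held 16, 7, 11, 7 and 6 higher and 8, 2, 3, 1 and 0 lower transporters. All listed genes on them numbered 351, 208, 265, 213 and 298, and their directions were not counted by chromosome.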

How the data were processed

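RNA was sequenced from 2 libraries of each genotype. Tools named by the submitters' processing notes are edgeR, Bowtie2 and Bismark, with TAIR10 as the build, and with neither versions nor roles. The authors deposited log2 fold changes (sams3 over L119) and p-values for genes that passed a 2-fold change and a p-value limit of 0.0001, per the file headers. No label or header says whether the p-value is adjusted or which tool made it. A table headed as transposable elements that rose is identical to the list of higher genes, and neither it nor the other table of transposable elements was used here. The files as used give neither counts nor levels, so depth is unknown and the p-values could not be recomputed. There were 0 further columns of per-sample values.

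Members were found by text search and grouped by the first matching substrate word (sulphate also spelled sulfate). Symbols, gene types, gene order and families were taken from RefSeq (assembly TAIR10.1), whose table holds 1335 of the 1336 listed loci and all 61 members. No coordinates are printed because that assembly name differs from the authors' build. Symbols that a family search caught by a shared abbreviation (39 loci) were left out of the families. Members and lists were chosen with earlier results of these data known. Named in full were the largest rise and fall in each group, the 5 largest changes and 5 smallest p-values in each direction, and family members with opposite directions. The other members are given by value or range, and listed genes without the word were named after their values were seen. No test was run across members: counts are set beside the same counts over all listed genes. Alternatives tried were stricter thresholds on fold and p, a narrower and a wider text search, and members without the pseudogene or the proteins that are not carriers. The counting code was tested on simulated lists. Work was done in Python 3.11.15 with pandas 2.3.3 and numpy 2.4.6, and with matplotlib 3.10.9 for plots.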

Additional observations from a re-analysis of the deposited data

How the results depend on the processing

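Of 48 alternative values of the main counts, shares and medians, 39 stayed and 9 moved. Staying meant within 1.5 times the count or 0.1 of the median (log2). Settings on p, gene type, adjacent members counted once and proteins that are not carriers kept 54 to 60 of the 61 transporters. Their values had little room to move, and both limits on p kept the same 54. A share of 77.0% cannot rise by 1.5 times. With the word in the name the share was 66.7%, near the 66.9% of all listed genes, yet it was scored as staying. The 39 are therefore no measure of robustness. With an absolute log2 fold change of at least 2, there were 12 higher and 2 lower transporters, with median absolute log2 fold changes of 2.45 and 2.11, and 5 substrate groups had more higher than lower genes (8 without that limit). With the word required in the name of the gene there were 18 higher and 9 lower transporters, again with 5 such groups. The MATE group then held 0 genes, and the metal group 1 higher and 1 lower. The group left under no heading turned from 11 higher and 6 lower to 3 higher and 5 lower. With the text transport anywhere in the description, 66 of 88 genes were higher (75%) and 22 lower. Among counts of single groups, 91 of 128 alternative values stayed and 37 moved under the same settings, so the 91 are no measure of robustness either. The nitrate or peptide group had 5 higher and 0 lower genes with a p-value below 1e-06, and the same 5 and 0 under the Bonferroni threshold, where the ABC group had 0 lower genes. Leaving out the channels and the import subunit was chosen after seeing the data.

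No paired analysis was possible because the deposited lists hold no values per library. For the same reason fits without a replicate, another normalisation or tool, and a filter on low counts could not be run. The planned searches of promoter motifs and of protein sequence were not run either, since no sequences were used here. With thresholded lists, transporters just short of 2-fold cannot be seen, and the depth behind each fold is unknown.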
